A study of Brassica oleracea var. italica with 2 samples.

Results

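The genes described here are the plastid-encoded subunits of the cytochrome b6f complex, petA, petB, petD, petG, petL and petN. They were taken as the probe sets that the platform annotation pairs with exactly 1 of these symbols, which gave 6 probe sets, 1 per gene, of 22810 on the array. The annotation paired none of the 6 symbols with a probe set shared with another gene. Signal was compared between broccoli seedlings (cultivar Elegance, wild-type background) carrying the empty vector pCAMBIA1380 and seedlings of the same cultivar and background carrying 35S::antisenseBoEMF2.1. The 35S promoter drives strong expression in most plant tissues, and BoEMF2.1 is related to EMF2, a Polycomb group gene that in Arabidopsis represses flowering genes. The word antisense is in the title and source name of the second sample but missing from its genotype label, and the title was followed. Both groups were whole seedlings of 11 days, grown in long days on sucrose-containing agar, and the labels do not say how many plants or transgenic lines were pooled.

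There was 1 array per group. No value therefore has a replicate error, no difference could be tested, and the words "higher" and "lower" are used of these arrays only. The arrays carry Arabidopsis probes hybridised with broccoli RNA, so a signal does not give the level of one gene relative to another, and each ratio compares a single probe set between arrays. The values are MAS5 signal intensities, with medians of 318.25 (vector) and 303.15 (antisense). A probe set counted as measured above the floor of an array when it exceeded the median of the 22746 probe sets on it that are not controls, 317.6 (vector) and 302.7 (antisense). No probe set is named EMF2 in the annotation, so the targeted gene was not analysed here. The green-tissue markers RCA, LHCB4.1 and PSAN and the root markers EXPA7, EXPA18 and PYK10 were above the floor on both arrays, as whole seedlings would hold.

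The cytochrome b6f complex sits in the thylakoid membrane between the photosystems. It oxidises plastoquinol, passes electrons to plastocyanin and moves protons into the thylakoid lumen, in linear and in cyclic electron flow. Its subunits come from both genomes: cytochrome f (petA), cytochrome b6 (petB), subunit IV (petD) and the small subunits encoded by petG, petL and petN are made in the plastid, while the Rieske iron-sulfur protein (PETC) and PETM are encoded in the nucleus. In land plants most plastid genes are transcribed in clusters and cut into smaller RNAs, and petB and petD each carry an intron. Poly(A) tails on plastid RNA mark it for decay and are short-lived. The primer used for labelling is not given in the sources used here beyond the manufacturer's standard protocol.

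All 6 genes were above the floor on both arrays, and 5 of them were lower in the antisense array. Their median log2 ratio of antisense over vector signal was -1.05 (2.08-fold lower), with a mean of -0.86 and an SD over the 6 genes of 0.55, beside a median of -0.02 for all 9382 probe sets that passed both floors. petA, petG and petL were 2-fold or more lower, which is 3 of 6, where 3.51% of the 9382 probe sets were. None was 2-fold or more higher (0 of 6), where 3.02% of probe sets were. The sixth gene, petD, had nearly equal signals on both arrays. Of the 9382 probe sets, 52.1% were lower in the antisense array by any amount.

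**Figure D1:**
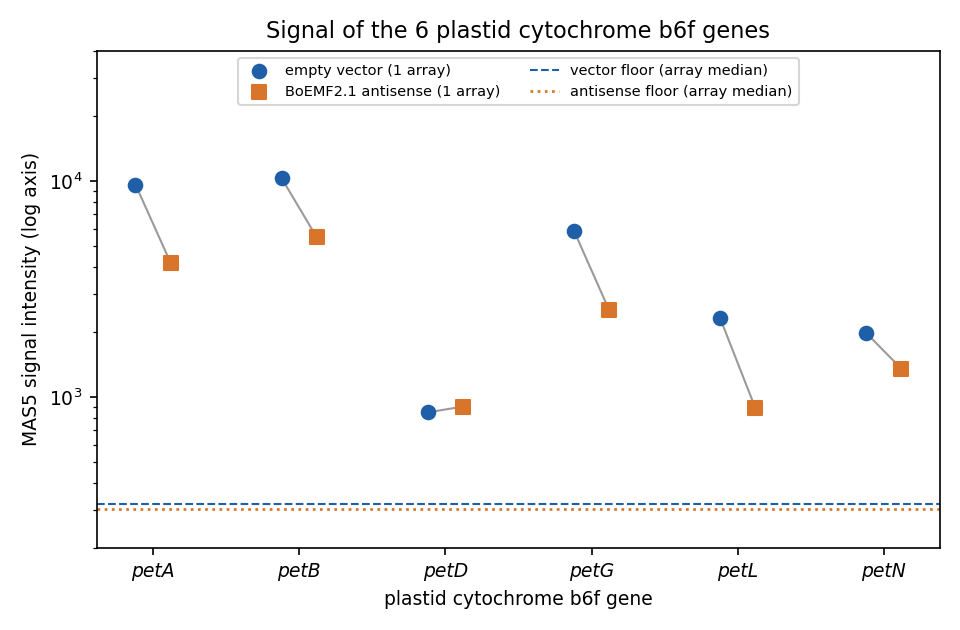
MAS5 signal intensity (log axis) of each plastid cytochrome b6f gene on the empty vector array (circles) and the BoEMF2.1 antisense array (squares), with each array's floor, the median of its probe sets other than controls, as a horizontal line. There is 1 array per group and so no error bar. The antisense square lies below the vector circle for petA, petB, petG, petL and petN, while for petD both lie close together at 847.1 and 901.7.

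Among the large subunits, petA and petB stood apart from petD. The signal of petA, which encodes the haem protein that hands electrons to plastocyanin, was 9604.7 (vector) and 4179.6 (antisense), a log2 ratio of -1.20 (2.30-fold lower). The signal of petB, whose product carries the haems of the quinone-oxidising core, was 10269.2 (vector) and 5477.8 (antisense), a log2 ratio of -0.91 (1.87-fold lower). Both were far from the floor, with petA still at 13.8 times the floor of the antisense array and petB at 18.1 times.

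The signal of petD, whose product forms the quinone-oxidising core together with cytochrome b6, was 847.1 in the vector sample and 901.7 in the antisense sample. Its log2 ratio was 0.09, and it turned to -0.10 when the arrays were scaled to the hybridization controls in place of the deposited scaling. No direction can therefore be given for petD. Its signal was 2.67 times the floor in the vector sample and 2.98 times in the antisense sample.

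All of the small subunit genes were lower in the antisense array. The signal of petL, which in tobacco helps keep the complex stable, was 2307.3 (vector) and 889.6 (antisense), a log2 ratio of -1.37 (2.59-fold lower) and the lowest of the 6. The signal of petG, which in tobacco is needed for the complex to accumulate, was 5864.4 (vector) and 2523.4 (antisense), a log2 ratio of -1.22 (2.32-fold lower). The signal of petN, likewise needed in tobacco, was 1972 (vector) and 1348.4 (antisense), a log2 ratio of -0.55 (1.46-fold lower). For petL the antisense array thus held 38.6% of the vector signal, for petG 43.0% and for petN 68.4%. The small subunit genes had a median log2 ratio of -1.22 and the large subunit genes one of -0.91, and these sets of 3 overlapped in range.

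The size of these ratios can be read against the noise between probe sets. From 31 gene symbols with 2 probe sets that each passed both floors, the SD of a single log2 ratio was 0.44, and that of a difference between ratios of different probe sets was 0.62. This SD covers probe noise within these arrays and not variation between plants. The ratio of petL was 3.16 of these SDs below 0, that of petG 2.79, that of petA 2.76, that of petB 2.08 and that of petN 1.26, while petD lay 0.21 above 0. In order of log2 ratio the genes ran petL, petG, petA, petB, petN and petD. The first 4 were within 0.47 of each other, less than the SD of a difference. Neighbours in that order did not differ beyond that SD except petN and petD, which were 0.64 apart. petD differed from petL by 1.47 and from petA by 1.29, which were 2.38 and 2.096 times the SD of a difference.

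Among all 9382 probe sets, 0.863% had a lower ratio than petL, 1.61% a lower ratio than petG, 1.69% than petA and 4.68% than petB. The share was 14.7% for petN and 59.5% for petD. Among the other 57 plastid-encoded genes above the floor on both arrays the members held no such extreme place: 11 of these genes had a lower ratio than petL, 14 a lower ratio than petA, and 35 a lower ratio than petN. Of the 57, 56 had a lower ratio than petD. The exception was rps15, a ribosomal protein gene, at 0.51 (2206 and 3145.8).

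The order of genes given here is that of the Arabidopsis plastid genome, as background; it was not checked against an annotation and may differ in broccoli. In it, petB and petD close the cluster psbB, psbT, psbH, petB, petD, which is transcribed together, with psbN on the opposite strand. In this cluster petD was the single gene whose ratio was not negative under the deposited scaling. The antenna gene psbB stood at a log2 ratio of -0.95 (3324.4 in the vector sample and 1726.2 in the antisense sample, the order kept below), 0.04 from petB. The gene psbH, for a small photosystem II subunit, lay next to petB and stood at -1.58 (2636.5 and 882.9). The gene psbT, also for a small photosystem II subunit, was above the floor on the vector array only (348.6 and 8.5), which gives a bound of at least 1.15-fold lower. The gene psbN, which acts in photosystem II assembly, stood at -0.52 (1349.5 and 942.1).

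Next to petD lies rpoA, the gene for the alpha subunit of the plastid RNA polymerase. It belongs to a separate cluster, that of ribosomal protein genes, on the opposite strand. rpoA stood at -1.01 (4072.4 and 2017.6), or -0.99 after centring on the median, and rpl36 at -1.75 (3038.9 and 901.8). The ratio of petD thus exceeded that of petB by 0.997 and that of rpoA, on its other side, by 1.10, which were 1.62 and 1.79 times the SD of a difference. From psbH it differed by 1.67, or 2.71 times that SD.

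**Figure D2:**
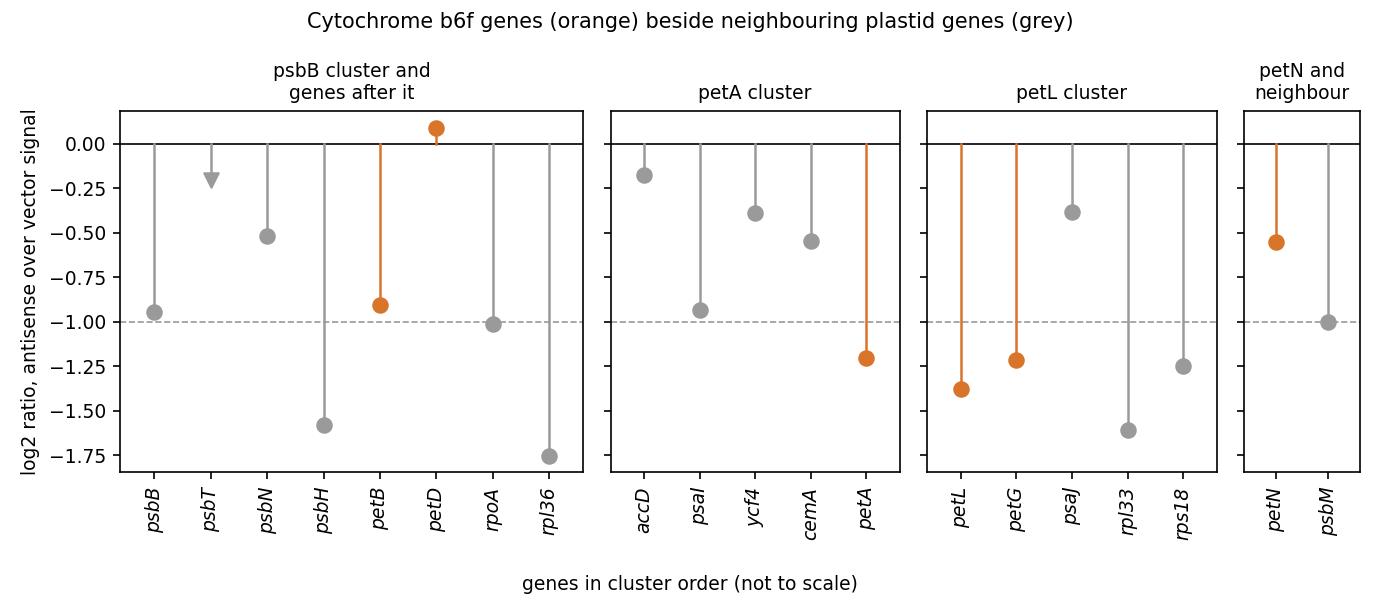
Log2 ratio of antisense over vector signal for the cytochrome b6f genes (orange) and the neighbouring plastid genes (grey), in gene order of the Arabidopsis plastid genome and not to scale. Circles are genes above the floor on both arrays, the triangle is a bound (psbT), and the dashed line marks 2-fold lower. petD at 0.09 (-0.10 with hybridization-control scaling) is the single point above 0, between petB at -0.91 and rpoA at -1.01, while petA at -1.20 is the lowest of its cluster.

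The petA gene is the last of psaI, ycf4, cemA and petA, which follow accD. Its ratio of -1.20 was the lowest of these 5 genes. The gene cemA, for a protein of the plastid envelope, lies directly before petA and stood at -0.54 (126875.8 and 87018.7). The gene ycf4, for a photosystem I assembly factor, stood at -0.39 (57870.7 and 44270.8), and psaI, for a small photosystem I subunit, at -0.94 (20748 and 10848.9). The gene accD, for a subunit of the acetyl-CoA carboxylase of fatty acid synthesis, stood at -0.17 (12873 and 11407.8). The ratio of petA was lower than that of cemA by 0.66 and than that of accD by 1.03, or 1.07 and 1.67 times the SD of a difference, and it was 0.26 from that of psaI.

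The genes petL and petG lie side by side, and psaJ, rpl33 and rps18 follow them. petL and petG differed by 0.16, and 4 of these 5 genes were 2-fold or more lower. The share was 36.8% among the 57 plastid-encoded genes that are not members and 3.51% among all 9382 probe sets above both floors. The ribosomal protein genes rpl33 and rps18 stood at -1.61 (26451.2 and 8664.6) and -1.25 (13621.4 and 5728.4). Between these pairs, psaJ, for a small photosystem I subunit, stood at -0.38 (53847.1 and 41295.9), higher than petL by 0.99 and than petG by 0.83, or 1.61 and 1.35 times the SD of a difference. On the opposite strand beside petL lies the cluster psbE, psbF, psbL and psbJ, which encodes cytochrome b559 and small photosystem II subunits. In it psbE stood at -0.995, psbF at -1.62 and psbL at -2.40, and psbJ was at least 1.64-fold lower (495.5 and 279).

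The gene petN lies by psbM, which is on the opposite strand and encodes a small photosystem II subunit. psbM stood at -1.002 (1815.4 and 906.5) or -0.98 after centring on the median, and petN was 0.45 above it, within the SD of a difference.

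Set beside the other plastid complexes, the range of the cytochrome b6f genes overlapped that of every group, and no difference was tested or order drawn. The median log2 ratio of cytochrome b6f genes was -1.05, of 15 photosystem II genes -0.95, of 5 photosystem I genes -0.92 and of 9 measured NDH genes -0.63. The 6 genes of the plastid ATP synthase had a median of -0.29 and lay between -0.82 and -0.05, with 0 of 6 being 2-fold or more lower. Among them, atpF was higher by its own signals (272.2 and 305.5), and its ratio is a bound close to the floor. The ribosomal protein genes had a median of -0.97 over 14 measured and the RNA polymerase genes one of -0.92 over 4. The ribosomal median takes rps4 (549.3 and 108.2) at its bound and leaves out rps16, which was below both floors, so it depends on the floor. The photosystem II median takes psbT (348.6 and 8.5) and psbJ (495.5 and 279) at their bounds, so it depends on the floor too. Of the 57 other plastid-encoded genes that passed both floors, 36.8% were 2-fold or more lower and 98.2% were lower by any amount, so the members' counts of 3 of 6 and 5 of 6 show nothing particular to this complex.

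**Figure D3:**
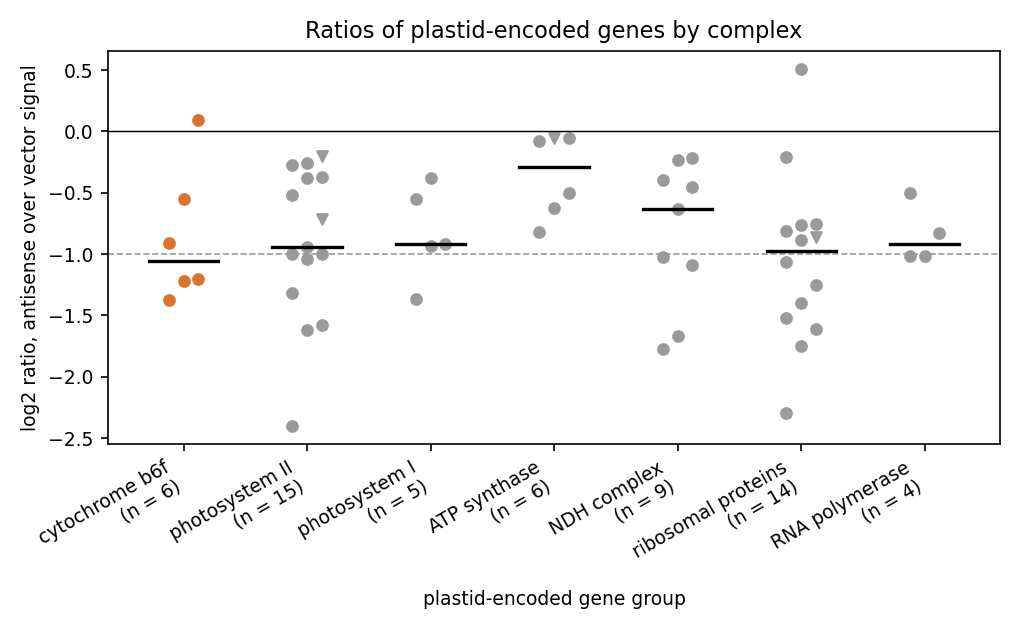
Log2 ratio of antisense over vector signal of plastid-encoded genes by complex, 1 point per gene, with the median of each group as a black bar. Circles are genes above the floor on both arrays, triangles are bounds, and the dashed line marks 2-fold lower. The cytochrome b6f genes (orange, median -1.05) overlap the photosystem, NDH and ribosomal protein genes, and the ATP synthase genes (median -0.29) all lie above the dashed line.

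The plastid genes whose ratios came closest to the members' median of -1.05 were rps2 at -1.06 (13400.3 and 6420.4), psbD at -1.04 (16215.2 and 7872.5) and ndhH at -1.02 (36482.3 and 17949.3). Likeness was the absolute difference of log2 ratios, 0.008, 0.011 and 0.030, and over 2 arrays it rests on a single ratio per gene.

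The nuclear side of the complex was thinly covered. Of 39 symbols listed for nuclear subunits, electron carriers and assembly or RNA factors, several of them alternative names, 4 were named in the annotation. Of these 4, 1 passed 2-fold in the lower direction and 0 in the higher. Among the 9382 probe sets above both floors the shares were 3.51% and 3.02%. CCB3 entered with a bound only, so the count depends on the floor. CYTC6A, a cytochrome c6-like protein of the thylakoid lumen, stood at -1.02 (891.4 and 439), but was under 2-fold after centring (-0.998), quantile (-0.99) and loess (-0.98) normalization. CCB3, which helps attach the covalently bound haem of cytochrome b6, was above the floor on the vector array only (352.7 and 115.9), at least 1.17-fold lower. PGRL1B, which acts in cyclic electron flow around photosystem I, stood at 0.08 (1753.3 and 1856.4), or at -0.11 with hybridization-control scaling. HCF101, which assembles iron-sulfur clusters for photosystem I, stood at 0.58 (601.4 and 897.6). PETC, PETM, the plastocyanin genes and the RNA factors CRP1, HCF152 and PGR3 were not named and were not analysed here.

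Mitochondria carry a relative of this complex, complex III, whose cytochrome b gene cob was not named in the annotation. The other mitochondrion-encoded genes listed, 12 of them measured, had a median of 0.12 (-0.08 with hybridization-control scaling). For genes with several probe sets (nad1 with 7, nad5 with 2) the probe set with the highest mean signal was used. By signal 6 were lower and 6 higher, with nad1 counted as lower at -0.001 (0.02 after centring). Of the 12, 1, nad4, was 2-fold or more lower (-1.02, or -0.997 after centring). The median of all 67 measured plastid-encoded genes was -0.82.

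Other measures also differed between the arrays. Of the green-tissue markers (3 of 5 listed were named), PSAN stood at -1.52, LHCB4.1 at -0.05 and RCA at 0.64, a median of -0.05. Their summed signal was 24877.3 in the vector sample and 18299.4 in the antisense sample. It was lower mainly through PSAN (13222.1 and 4622.5). Of the root markers, 3 of 3 named, EXPA7 stood at 1.63 (374.7 and 1158.2), EXPA18 at 0.80 and PYK10 at -0.44, a median of 0.80. The vector signal of EXPA7 was close to the floor of 317.6, which limits how well its ratio is measured. The summed signal of the root markers was 2835.3 and 4097.2. Pairs of plant controls that probe both ends of a transcript were kept where both ends were above the floor on both arrays. Of the 5 pairs kept, 4 had a higher log2 ratio at the 5′ end, and the median excess over the 5 pairs was 0.44. The pairs were not 5 separate transcripts: the excess was 0.62 and 0.04 for actin, 0.52 and 0.44 for ubiquitin and -0.34 for GAPDH. The part of these differences in the lower signal of the cytochrome b6f genes was not tested. In RNA from whole seedlings, fewer green cells, fewer plastids per cell and less RNA per plastid cannot be told apart. A difference in the labelled share of plastid RNA cannot be told apart from them either.

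Scaling to the hybridization controls shifts every ratio by the same amount. With it the median of the 9382 probe sets shifted from -0.02 to -0.22, and the members' median went to -1.25, with petB passing 2-fold at -1.10. The number of probe sets 2-fold or more lower and higher went from 329 and 283 to 585 and 154, so that 20.8% rather than 46.2% of those past 2-fold were higher. Relative to the median of all probe sets the members' median was -1.03, and petD stood at 0.11.

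**Figure D4:**
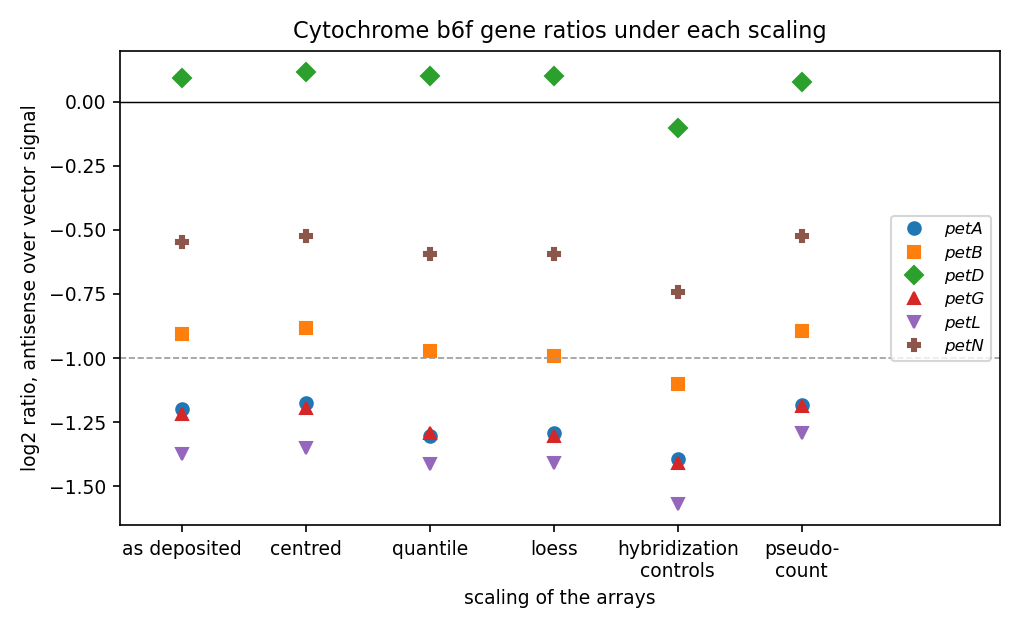
Log2 ratio of antisense over vector signal of each plastid cytochrome b6f gene under the deposited scaling, centring, quantile and loess normalization, scaling to the hybridization controls, and a pseudocount at each array's 25th percentile. The dashed line marks 2-fold lower. petA, petG and petL lie below it in every column, petB crosses it with the hybridization controls (-1.10), and petD lies above 0 except there (-0.10).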

How the data were processed

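The intensity of each probe set was used as the authors deposited it, a MAS5 signal on a linear scale. The submitters' processing notes name MAS5, and its version and settings are not given in the sources used here. Groups came from the sample titles. Genes were named from the platform annotation, which gives 1 gene for 13513 probe sets, several for 503 and none for 8794. Plastid genes were those in the run of gene numbers that the annotation gives to plastid loci (69 probe sets).

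Ratios are log2 of antisense over vector signal. Values under an array's median were raised to it, giving a bound where 1 array was below this floor and no ratio where both were. With 1 array per group no test was made and the number of arrays limits precision. A gene was called at 2-fold. All members, their neighbours and the listed nuclear, mitochondrial and marker genes are named, with the 3 plastid genes of nearest ratio; other genes named serve as examples. Members and lists were chosen with earlier results of these data known. The ratio step was tested on simulated data.

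Alternatives were 4 scalings (centring, quantile, loess with a span of 0.4, hybridization controls), other floors (25th percentile, 75th percentile, none), a pseudocount and a 1.5-fold threshold. Python 3.11.15 was used with pandas 2.3.3, numpy 2.4.6, statsmodels 0.14.6 (loess), scipy 1.17.1 and, for plots, matplotlib 3.10.9.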

Additional observations from a re-analysis of the deposited data

How the results depend on the processing

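No paired analysis was possible because there was 1 array per genotype, which also kept any from being left out. Over the scalings, floors and pseudocount, the log2 ratio lay between -1.39 and -1.18 for petA, -1.10 and -0.88 for petB, -1.41 and -1.19 for petG, -1.57 and -1.29 for petL, -0.74 and -0.52 for petN, and -0.10 and 0.11 for petD, and the members' median between -1.25 and -1.03. The count of members 2-fold or more lower was 3 of 6, and 4 of 6 with hybridization-control scaling or at 1.5-fold. Changing or dropping the floor could change no member's ratio, as all members exceeded each floor tried. Using the mean over a gene's probe sets could change nothing either, as each member has 1. Background counts depend by construction on floor and threshold. Of 9382 probe sets above both floors, 329 were lower and 283 higher, and at 1.5-fold 1229 and 1085. With hybridization-control scaling the counts were 585 and 154 of the same 9382. With the floor at the 25th percentile they were 1352 and 1149 of 15156, and at the 75th 111 and 114 of 4548. With no floor they were 3691 and 3241 of 22746, and with the pseudocount 1879 and 1463 of 22746. On the vector array the petD signal was 2.67 times the floor, which limits how well its ratio is measured.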
